A study of Mus musculus with 28 samples.

Results

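The comparison described here is the effect of semaglutide on liver mRNA of diabetic db/db mice, read across sedentary and treadmill-trained animals at once. It takes in 12 of the 28 samples of the series, all of them liver libraries. In 6 libraries the mice had received semaglutide, 3 given semaglutide alone and 3 given semaglutide together with training (the combined group). The other 6 libraries came from mice without semaglutide, 3 from mice that did high-intensity interval training (HIIT) and 3 from sedentary controls. Libraries were assigned by these labels, and training was carried in the model as an additive factor.

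All 4 groups were male mice labelled C57BL/KsJ db/db, 8 weeks old when treatment started, and all were treated or kept for 8 weeks. Semaglutide was injected under the skin each day. Its dose is stated as 30 nmol/kg in one label and as 0.05 mg/kg in another; these do not match, and which was given is not settled by the sources used here. Training was 10 treadmill bouts of 4 min with 2 min of recovery between bouts, on 5 days a week. Controls were reared without either. Every animal, controls included, carries the db mutation, and no lean mouse enters the comparison. The labels do not say whether each library is a separate animal, and the p-values then reflect only the spread among libraries, which may be technical.

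Semaglutide is a long-acting agonist of the receptor for glucagon-like peptide 1 (GLP-1), a gut hormone that raises insulin release and lowers appetite. The db mutation removes the signalling form of the leptin receptor, and mice carrying it overeat, become obese and diabetic, and store fat in the liver. Liver handles incoming fatty acids in several ways: it esterifies them into lipid droplets, burns them in mitochondria and peroxisomes under the nuclear receptor PPARA, or exports them in lipoproteins. The organ also degrades amino acids, makes bile acids, secretes plasma proteins and hormones, and follows feeding and the day with its own circadian clock.

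Levels are FPKM, fragments normalized for transcript length and for library total in the authors' deposited table, summed here over the transcripts of a gene. Counts are not part of these values, and library depth is therefore unknown. Log2 changes are semaglutide-treated minus not treated on the log2(FPKM + 1) scale, which understates changes of weakly expressed genes, and are given ± their standard error. A gene is called when limma's adjusted p (Benjamini-Hochberg over all 10348 genes tested) is below 0.05. A gene's groups do not overlap when all 6 treated libraries lie on one side of all 6 others.

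All 12 libraries carried hepatocyte transcripts at high level, with Ttr at 1720 to 3660 FPKM and Hnf4a at 61 to 144 FPKM. Library semaglutide 2 stood apart, with a median correlation with the other libraries of 0.9001, and so did control 3 with 0.9392, against 0.9758 to 0.9831 for the rest. In semaglutide 2 the summed skeletal muscle markers reached 13500 FPKM, against at most 2.45 FPKM in every other library, with Acta1 at 3900 FPKM. The adipocyte transcript Adipoq stood at 137 FPKM there and at no more than 0.0688 FPKM elsewhere. Control 3 carried the neutrophil transcript S100a8 at 133 FPKM, against at most 3.64 FPKM elsewhere, and the highest macrophage sum, 1040 FPKM. Both libraries are sedentary, so they enter the estimates of the semaglutide against control contrast and not those of the combined against HIIT contrast. Standard errors and calls of both contrasts come from 1 pooled spread, to which these libraries contribute. In bulk tissue, fewer cells of a type and less RNA per cell cannot be told apart.

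**Figure D1:**
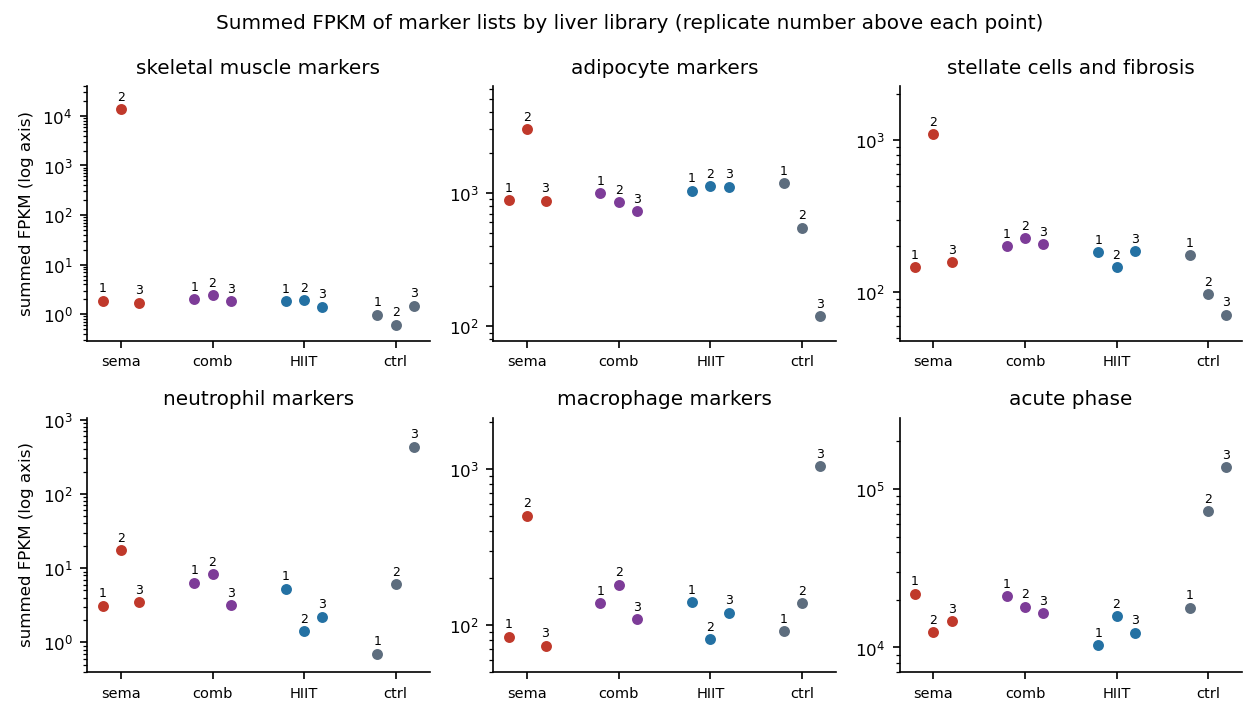
Summed FPKM of 6 marker lists in each liver library, on log axes, with semaglutide (sema), combined (comb), HIIT and control (ctrl) groups and the replicate number above each point. The muscle sum of semaglutide 2 is 13500 FPKM, against at most 2.45 FPKM in the other libraries, and control 3 holds the highest neutrophil sum, 431 FPKM.

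Transcripts of the drug's own receptor were scarce in this tissue. Glp1r did not exceed 0.0791 FPKM in any library. Gipr, the receptor of the sister incretin, was at 0.442 FPKM in semaglutide 2 and at no more than 0.0164 FPKM elsewhere. Lepr, which carries the db mutation, lay between 0.111 and 0.581 FPKM. The glucagon receptor gene Gcgr averaged 123 ± 27.8 FPKM in treated and 117 ± 10.5 FPKM in untreated libraries, and the insulin receptor gene Insr 10.8 ± 0.362 FPKM in treated and 10.1 ± 0.777 FPKM in untreated libraries (SD, n = 6 each), and neither was called.

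The semaglutide term called 184 genes, 1.78% of those tested. Of these, 100 were higher (0.966% of the genes tested) and 84 lower (0.812%) in treated livers. Single calls within a list are read beside these shares and not as results about the list. The absolute log2 change of a called gene had a median of 0.66 and was at least 2-fold for 42 genes, 29 higher and 13 lower. Groups did not overlap for 135 of the called genes. Over all tested genes the 6 treated libraries lay apart from the 6 others for 322 genes, 3.11%, with 198 higher and 124 lower. The median log2 change of all tested genes was 0.06, and 61.5% of them were above 0, so list medians below are read beside that value. When mitochondrially encoded transcripts were removed and the rest rescaled, the median of all genes became 0.13 and 182 genes were called, 140 higher and 42 lower, a share of higher calls of 76.9% against 54.3%. With median-ratio scaling the median of all genes was 0.01 and lower calls were the more numerous, 102 higher and 123 lower.

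All 184 called genes had the same sign in sedentary mice (semaglutide minus control) and in trained mice (combined minus HIIT). The main effect that picked them is the mean of these contrasts, so agreement in sign is largely built into the choice. Taken alone, the sedentary contrast called 74 genes (0.715%) and the trained contrast 12 (0.116%). Of the 184, 46 were called in the sedentary contrast, 10 in the trained one and 134 in neither. The same additive fit gave 0 calls for training (0%), where 696 genes had an unadjusted p below 0.05 and the smallest adjusted p was 0.613. For the semaglutide term 1755 genes had an unadjusted p below 0.05.

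**Figure D2:**
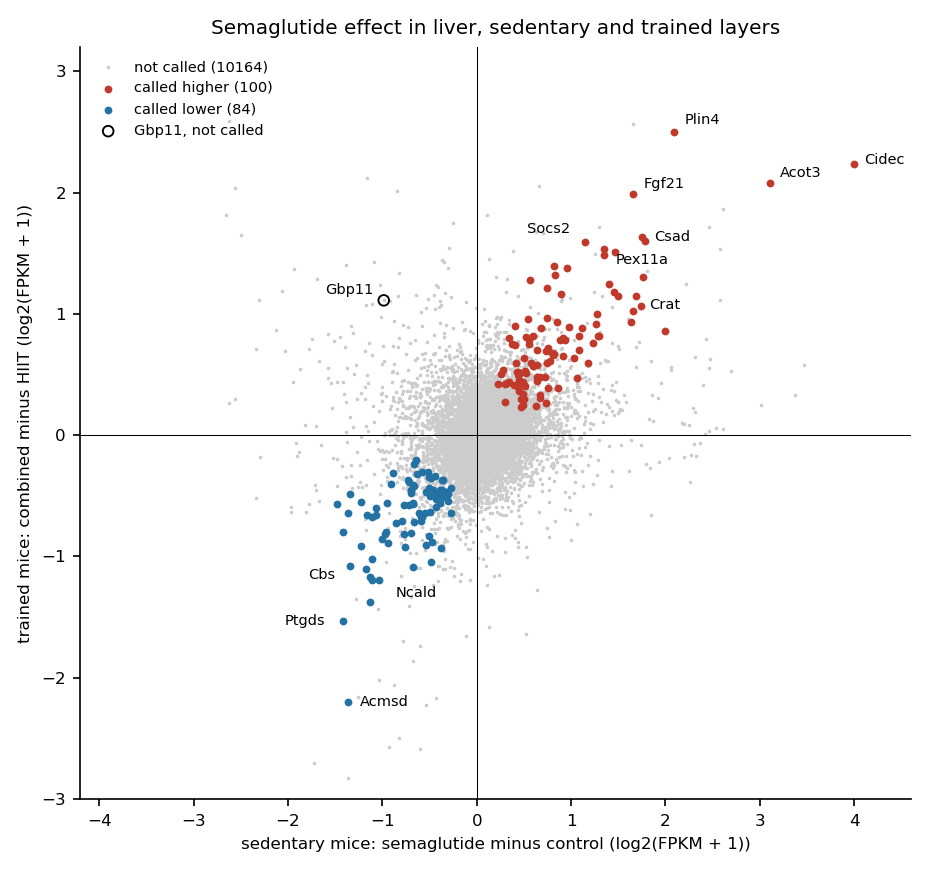
Log2 change of each tested gene in sedentary mice (x axis, semaglutide minus control) and in trained mice (y axis, combined minus HIIT), both on the log2(FPKM + 1) scale; 3 uncalled genes fall outside the axes. The 100 genes called higher and the 84 called lower each have the same sign on both axes, while Gbp11, which was not called in the main effect, is at -0.99 and 1.11. Genes were called on the main effect, the mean of both axes, so agreement in sign is largely built in.

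Genes of fatty acid use held the largest higher calls. Of 29 tested targets of PPARA, the nuclear receptor that switches on fatty acid oxidation, 28 had log2 changes above 0 and 9 were called, all higher. Their median log2 change was 0.54, against 0.06 for all tested genes, and it was 0.74 in sedentary and 0.32 in trained mice. Without semaglutide 2 and control 3 the median was 0.49, with 12 members called. In that setting 785 of all 10348 tested genes were called, against 184 with all libraries. The 9 were Cidec, Acot1, Acot2, Acot3, Acot4, Fgf21, Crat, Pex11a and Slc25a20. Lists share members, and several of these genes count again in the lists that follow.

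Pex11a, which drives the growth and division of peroxisomes, had the smallest p of these. It was between 81.2 and 156 FPKM in treated livers (median 130) and between 39.6 and 53 FPKM in untreated livers (median 44.6). Every treated library lay above every untreated one, and the log2 change was 1.41 ± 0.15 (adjusted p = 0.00145), with 1.34 in sedentary and 1.48 in trained mice. Crat, the carnitine acetyltransferase that buffers acetyl-CoA, measured 35, 82 and 44.1 FPKM with semaglutide alone and 37.3, 36.3 and 33.3 FPKM in the combined group, against 14.3, 15 and 17.6 FPKM with HIIT and 19.3, 11.2 and 15.1 FPKM in controls. Its change was 1.42 ± 0.20 (adjusted p = 0.00677), and 1.23 without semaglutide 2 and control 3. Slc25a20, which carries acylcarnitines into mitochondria, changed less but with little spread, at 116 ± 11.2 FPKM in treated and 78.5 ± 3.09 FPKM in untreated livers (SD, n = 6 each), a log2 change of 0.56 ± 0.07 (adjusted p = 0.00526).

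Acyl-CoA thioesterases split acyl-CoA into free fatty acid and coenzyme A, and 4 of 12 tested were called, all higher. Acot1 encodes a cytosolic form, Acot2 a mitochondrial form, and Acot3 and Acot4 peroxisomal forms. Acot3 ran between 27.4 and 79.4 FPKM in treated livers (median 52.6) and between 0.904 and 23 FPKM in untreated livers (median 10), a log2 change of 2.59 ± 0.54 (adjusted p = 0.0356). Acot4 changed by 1.69 ± 0.31 (adjusted p = 0.0207), Acot1 by 1.43 ± 0.31 (adjusted p = 0.046) and Acot2 by 1.40 ± 0.24 (adjusted p = 0.0164). None of the 4 had overlapping groups. The 4 genes are close copies of one another in a cluster, and Acot3 and Acot4 overlap an opposite-strand gene, so how fragments were shared among them is uncertain. With single libraries left out the call of Acot2 ended without control 2 (adjusted p = 0.052), that of Acot4 without control 2, HIIT 2, HIIT 3 or combined 2 (0.0541 to 0.0626), that of Acot3 without any library other than controls 1 and 3, HIIT 1 and semaglutide 2 (0.059 to 0.0915), and that of Acot1 without any other than control 3 (0.0522 to 0.103).

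Beyond those genes the oxidation machinery moved less. All 26 tested genes of mitochondrial fatty acid oxidation had log2 changes above 0, with a median of 0.34, and 3 were called (Crat, Acot2 and Slc25a20). The list's median was 0.47 in sedentary and 0.15 in trained mice, and several members had estimates below 0 in trained mice. Acsl1, which activates long-chain fatty acids, was at 182 ± 24.5 FPKM in treated and 112 ± 27.2 FPKM in untreated livers (SD, n = 6 each) and did not pass (log2 change 0.72 ± 0.17, adjusted p = 0.0578). Nor did Decr1, an enzyme for unsaturated fatty acids, at 0.40 ± 0.10 (adjusted p = 0.0648). Without semaglutide 2 and control 3 the list's median was 0.19. Of 24 tested peroxisomal genes, 17 were above 0 and 4 were called, among them Abcd2, a transporter of very-long-chain acyl-CoA (1.06 ± 0.23, adjusted p = 0.0434). The call of Abcd2 ended without any library other than control 1 and semaglutide 2 (0.0514 to 0.0971). No gene of ketone body synthesis (7 tested), lipogenesis (21), cholesterol synthesis (24) or gluconeogenesis and glycolysis (26) was called. Among these, 22 of 24 cholesterol synthesis genes had log2 changes below 0 (median -0.29). Scd1, which desaturates fatty acids, averaged 1500 ± 575 FPKM in treated and 438 ± 253 FPKM in untreated livers (SD, n = 6 each) without overlap and missed the threshold (2.09 ± 0.55, adjusted p = 0.0786). Srebf1, which encodes the lipogenic factor SREBP1, was at -0.78 ± 0.21 and did not pass (adjusted p = 0.0786).

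Of 22 tested genes of the lipid droplet, 5 were called, all higher. Without semaglutide 2 and control 3 the number was also 5, while calls over all tested genes rose from 184 to 785. Cidec, which fuses droplets into larger ones, had the largest log2 change of the genes named. It stood at 32, 194 and 27 FPKM with semaglutide and 23.6, 40.9 and 10.9 FPKM in the combined group, against 8.5, 0.985 and 5.23 FPKM with HIIT and 2.35, 3.83 and 1.75 FPKM in controls. That is a log2 change of 3.12 ± 0.58 (adjusted p = 0.0222), 4.00 in sedentary and 2.24 in trained mice. Plin4, a perilipin of the droplet coat, had its highest value, 93.5 FPKM, in the same library, semaglutide 2, and was between 11.5 and 24.2 FPKM in the other treated livers and between 1.99 and 7.02 FPKM in untreated livers. It changed by 2.29 ± 0.44 (adjusted p = 0.0255). Cidec and Plin4 are also adipocyte genes, and semaglutide 2 is the library with adipocyte transcripts at high level. Without it and control 3 the changes were 2.51 (adjusted p = 0.00826) and 2.04 (adjusted p = 0.00148). Both libraries were left out for their divergence in these same data, so the smaller adjusted p is not separate evidence. The part of adipocyte transcripts in these changes was not tested.

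Mgll, the lipase of the last step of triglyceride breakdown, varied little within groups. Semaglutide alone gave 85.3, 86.8 and 88.2 FPKM and the combined group 89.8, 98.2 and 74.3 FPKM, against 49.7, 43.9 and 57 FPKM with HIIT and 47.3, 47.7 and 40.1 FPKM in controls. The log2 change was 0.86 ± 0.10 (adjusted p = 0.00205). G0s2, which inhibits the first lipase of that breakdown, was at 150 ± 16.6 FPKM in treated and 63.2 ± 22.6 FPKM in untreated livers (SD, n = 6 each), a change of 1.34 ± 0.26 (adjusted p = 0.0286). Fitm2, an endoplasmic reticulum protein needed for droplets to form, changed by 0.88 ± 0.15 (adjusted p = 0.0141), with 1.17 in sedentary and 0.59 in trained mice (unadjusted p of that difference 0.0394). The call of Cidec ended without control 1, control 2, HIIT 2 or combined 2 (0.0502 to 0.0607), that of Plin4 without any HIIT library, control 1 or 2, or combined 2 or 3 (0.0554 to 0.0664), and that of G0s2 without any library other than control 1, control 3, HIIT 3 and semaglutide 2 (0.0514 to 0.0655).

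**Figure D3:**
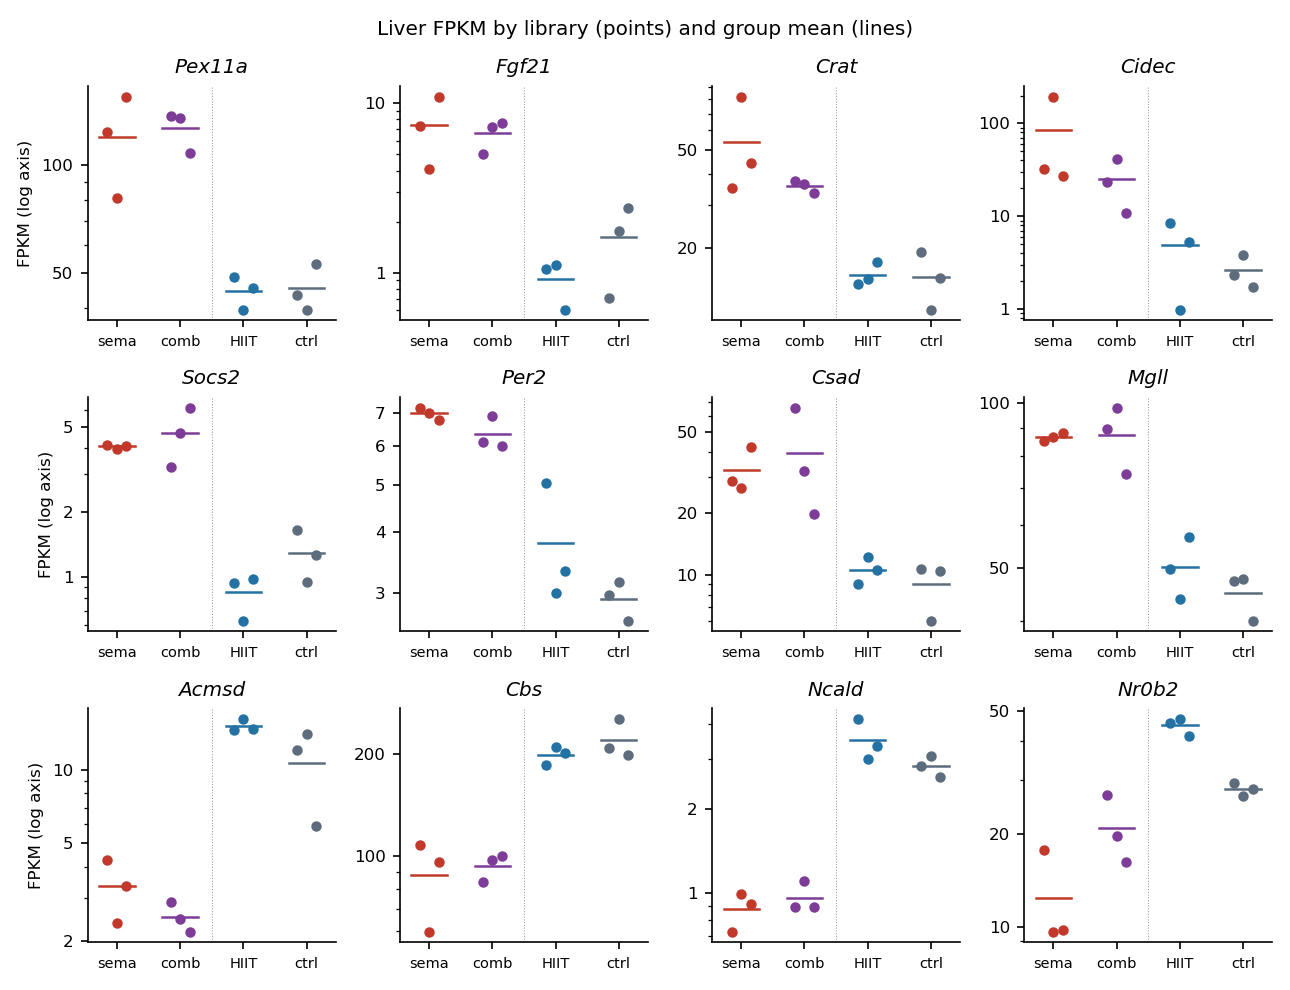
FPKM of 12 called genes in each liver library (points, log axes) with group means (lines), for semaglutide (sema), combined (comb), HIIT and control (ctrl). In every panel but Nr0b2 all 6 treated libraries lie on one side of the 6 untreated ones: Pex11a is between 81.2 and 156 FPKM in treated and between 39.6 and 53 FPKM in untreated livers, and Cbs between 59.9 and 108 FPKM in treated and between 185 and 253 FPKM in untreated livers.

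Among genes for secreted hormones, Fgf21 rose most. FGF21 is a liver hormone that acts on fat and brain and is induced by PPARA and by amino acid shortage. Its gene was at 7.31, 4.11 and 10.9 FPKM with semaglutide and 5.04, 7.21 and 7.66 FPKM in the combined group, against 1.05, 1.11 and 0.604 FPKM with HIIT and 0.713, 1.77 and 2.42 FPKM in controls. All treated livers exceeded all untreated ones, with a log2 change of 1.82 ± 0.22 (adjusted p = 0.00311) and estimates of 1.65 in sedentary and 1.99 in trained mice (unadjusted p of the difference 0.476). Inhbe, the subunit of activin E, was at 22.5 ± 4.48 FPKM in treated and 11.6 ± 1.84 FPKM in untreated livers (SD, n = 6 each; 0.89 ± 0.14, adjusted p = 0.0113), again without overlap. Tsku, which encodes the secreted proteoglycan tsukushi, was called at 1.00 ± 0.22 (adjusted p = 0.0461), and its groups overlapped. Its call ended without any library other than control 1 and semaglutide 2 (0.0565 to 0.0939). These were the 3 calls among 23 tested hepatokine and stress hormone genes, whose median change was -0.01. Of 20 tested genes of serine synthesis and the ATF4 response, Fgf21 was the 1 called.

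Circadian clock genes were called in both loops described here. In the liver clock, CLOCK and BMAL1 bind E-boxes and switch on Per and Cry genes, whose products then repress them. Another loop runs through REV-ERB repressors (genes Nr1d1 and Nr1d2), and D-boxes, bound by DBP, TEF and HLF, carry the rhythm to further genes. Of 25 tested clock and clock-output genes, 7 were called higher, among them Per1, Per2, Per3, Cry1, Wee1 and Usp2, and Nr1d1 was called lower. Per1, Cry1 and Usp2 lie outside the naming rule and were added after their values were seen. The list's median log2 change was 0.25, with 0.29 in sedentary and 0.31 in trained mice. Without semaglutide 2 and control 3, 12 members were called, while calls over all tested genes rose from 184 to 785.

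Period genes rose together. Per2 was at 7.19, 7.03 and 6.79 FPKM with semaglutide and 6.13, 6.93 and 6 FPKM in the combined group, against 5.04, 3 and 3.33 FPKM with HIIT and 2.97, 3.16 and 2.63 FPKM in controls, a log2 change of 0.84 ± 0.11 (adjusted p = 0.0055). Per3 was between 3.96 and 8.48 FPKM in treated livers (median 5.31) and between 1.54 and 3.93 FPKM in untreated livers (median 2.22), a change of 0.98 ± 0.16 (adjusted p = 0.0117). The groups of both genes do not overlap, though those of Per3 nearly touch. Per1 changed by 0.65 ± 0.15 (adjusted p = 0.0484), between 13.2 and 20.3 FPKM in treated and between 7.06 and 12.9 FPKM in untreated livers. Cry1, a repressor partner of the PER proteins, changed by 0.43 ± 0.10 (adjusted p = 0.0484).

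Outside the Per and Cry loop, Wee1, a cell cycle kinase gene driven by the clock, was at 4.64 ± 0.951 FPKM in treated and 1.75 ± 1.01 FPKM in untreated livers (SD, n = 6 each; 1.09 ± 0.15, adjusted p = 0.00566). Usp2, a ubiquitin protease gene with a strong daily rhythm, changed by 1.00 ± 0.22 (adjusted p = 0.0425). Nr1d1 moved the other way, at 15.5 ± 3.93 FPKM in treated and 25.5 ± 5.36 FPKM in untreated livers, and its groups overlapped (-0.69 ± 0.14, adjusted p = 0.035). Nr1d1 shares sequence with Thra on the opposite strand, which was not called (0.15 ± 0.20). The activators themselves did not pass: Bmal1 was at -0.48 ± 0.16 (adjusted p = 0.154) and Clock at -0.15 ± 0.11. Among D-box binders Dbp was at 0.55 ± 0.21, Tef at 0.49 ± 0.12 and Hlf at 0.43 ± 0.11, none of them called. No source used here gives the time of day of tissue collection. With single libraries left out, the calls of Per2, Per3 and Wee1 held throughout. That of Cry1 ended without any library other than semaglutide 2 (0.0566 to 0.111), and that of Per1 without any other than control 3 and semaglutide 1 (0.0513 to 0.119). That of Nr1d1 ended without any other than control 3 and semaglutide 2 (0.059 to 0.0839), and that of Usp2 without any other than control 3, HIIT 1, semaglutide 2 and semaglutide 3 (0.0682 to 0.101).

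**Figure D4:**
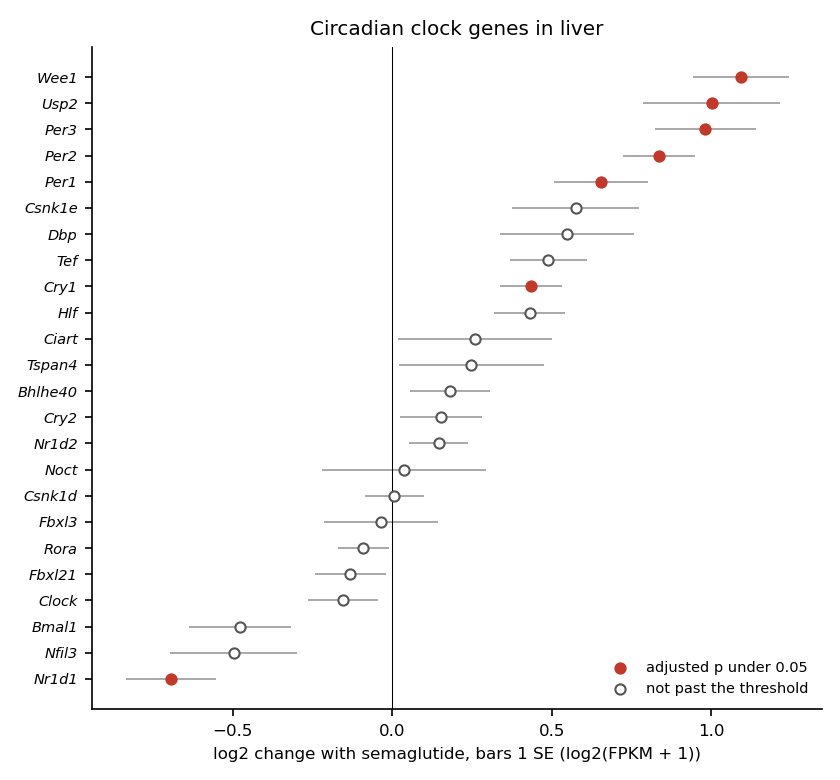
Log2 change with semaglutide (x axis, log2(FPKM + 1), bars 1 standard error) of 24 of the 25 tested clock and clock-output genes. Filled points passed the threshold; Wee1 is the highest at 1.09 and Nr1d1 the lowest at -0.69.

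Promoters of called clock genes are printed because the E-box and the D-box are the elements through which this loop works. Windows of 300 bases, 250 before the start site and 50 after it, come from RefSeq with build GRCm38.p6, in lower case with matches to CACGTG (E-box) or TTATGNAA (D-box, both strands searched) in capitals. Of the 7 clock genes called higher, 4 had an entry, and the windows of 3 held a match.
Per1, chr11:69098699-69098998, plus strand: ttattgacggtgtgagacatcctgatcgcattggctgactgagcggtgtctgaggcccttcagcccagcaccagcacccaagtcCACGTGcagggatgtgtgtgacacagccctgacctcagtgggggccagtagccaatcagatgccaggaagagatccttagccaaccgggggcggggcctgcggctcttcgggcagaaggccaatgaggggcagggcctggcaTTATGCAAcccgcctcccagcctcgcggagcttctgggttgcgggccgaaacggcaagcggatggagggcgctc
Per3, chr4:151044616-151044915, minus strand: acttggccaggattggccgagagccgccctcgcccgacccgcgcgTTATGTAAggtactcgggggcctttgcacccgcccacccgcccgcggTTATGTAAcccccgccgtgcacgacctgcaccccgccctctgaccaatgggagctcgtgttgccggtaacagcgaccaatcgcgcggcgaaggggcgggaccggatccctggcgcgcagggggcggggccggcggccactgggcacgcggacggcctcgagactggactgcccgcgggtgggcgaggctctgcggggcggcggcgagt
Cry1, chr10:85185005-85185304, minus strand: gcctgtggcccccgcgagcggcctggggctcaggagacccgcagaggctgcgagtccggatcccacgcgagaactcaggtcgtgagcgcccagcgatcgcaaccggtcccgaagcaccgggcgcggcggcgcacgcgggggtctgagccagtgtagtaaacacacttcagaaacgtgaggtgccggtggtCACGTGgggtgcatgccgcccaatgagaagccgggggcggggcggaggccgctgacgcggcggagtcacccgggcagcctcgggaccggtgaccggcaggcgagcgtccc
The Per1 window shown holds 1 E-box, starting 166 bases before the start site, and 1 D-box 24 bases before it. Another Per1 window, chr11:69099902-69100201, holds neither element and is not shown. The Per3 window holds 2 D-boxes and that of Cry1 1 E-box. Over all 32851 windows of the table, 7.15% hold an E-box and 3.38% a D-box. Of 105 windows of genes called higher, 17.1% hold an E-box, against 12.3% of 73 windows of genes called lower and 10.1% of 10454 windows of tested genes. Some genes have several windows, which can overlap, and others have none. Counted by gene, an E-box stands in 15 of 72 genes called higher, 9 of 63 called lower and 978 of 8158 tested. A D-box stands in 3.81% of the windows of genes called higher, against 4.11% for genes called lower and 2.29% for tested genes. A match is a run of letters and says nothing about binding in these livers.

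Growth hormone acts on liver through STAT5, and the negative feedback genes Socs2 and Cish are its direct targets. Both were called higher, the 2 calls among 17 tested genes of the growth hormone and IGF axis. Socs2 had the smallest p of all genes called higher. It was at 4.11, 3.96 and 4.08 FPKM with semaglutide and 3.26, 4.7 and 6.13 FPKM in the combined group, against 0.941, 0.628 and 0.981 FPKM with HIIT and 1.65, 0.955 and 1.27 FPKM in controls. No treated liver came near the untreated range, and the log2 change was 1.37 ± 0.14 (adjusted p = 0.00131). Cish was at 2.78 ± 1.1 FPKM in treated and 0.74 ± 0.476 FPKM in untreated livers (SD, n = 6 each; 1.11 ± 0.20, adjusted p = 0.0205), with semaglutide 1 at 1.41 FPKM below control 2 at 1.58 FPKM. Its call ended without any HIIT library or combined 2 (0.0532 to 0.058). Igfbp2, a binding protein of IGF, was not called (-0.95 ± 0.35), and the list's median was 0.04.
The Cish promoter is shown for its pair of STAT palindromes (TTCNNNGAA, which reads the same on both strands), in capitals, in the RefSeq window of build GRCm38.p6.
Cish, chr9:107296409-107296708, plus strand: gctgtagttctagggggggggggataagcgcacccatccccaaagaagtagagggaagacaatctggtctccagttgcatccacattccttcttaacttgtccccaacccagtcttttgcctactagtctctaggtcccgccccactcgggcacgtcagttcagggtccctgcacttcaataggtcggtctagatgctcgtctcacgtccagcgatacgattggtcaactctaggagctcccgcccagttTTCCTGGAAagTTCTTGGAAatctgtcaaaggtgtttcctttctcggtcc
Such a palindrome stands in 8.3% of all windows of the table and in 6.67% of the 105 windows of genes called higher, against 2.74% of the 73 windows of genes called lower and 6.56% of the windows of tested genes.

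Genes of amino acid breakdown were called in the lower direction. Of 42 tested genes of amino acid catabolism, 34 had log2 changes below 0, 5 were called and all 5 were lower: Acmsd, Cbs, Hal, Amdhd1 and Tat. The list's median was -0.28, with -0.32 in sedentary and -0.38 in trained mice, and -0.24 without semaglutide 2 and control 3, where 19 members were called. Calls over all tested genes rose from 184 to 785 in that setting. The hepatocyte markers, which include Tat and Cps1, had the same median of -0.28 with 9 of 13 below 0, and a median of -0.10 without semaglutide 2 and control 3. They summed to between 25500 and 52000 FPKM in treated and between 31400 and 54300 FPKM in untreated livers, and their part in the amino acid and urea cycle medians was not tested. Cbs, which opens the path that turns homocysteine into cysteine, was at 108, 59.9 and 96.3 FPKM with semaglutide and 83.6, 97.3 and 100 FPKM in the combined group, against 185, 209 and 201 FPKM with HIIT and 208, 253 and 198 FPKM in controls. The groups were far apart, with a log2 change of -1.21 ± 0.14 (adjusted p = 0.00308). Cth, the next enzyme of that path, was at -1.02 ± 0.27 and did not pass (adjusted p = 0.0789).

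Both called enzymes of histidine degradation were lower by similar amounts. Hal, histidine ammonia-lyase, was at 65.7 ± 12.6 FPKM in treated and 126 ± 21.9 FPKM in untreated livers (SD, n = 6 each; -0.93 ± 0.16, adjusted p = 0.0145). Amdhd1, the imidazolonepropionase, was at 45.4 ± 7.63 FPKM in treated and 86.1 ± 18.3 FPKM in untreated livers (-0.90 ± 0.16, adjusted p = 0.0206). Tat, which starts tyrosine breakdown and is a classic target of glucocorticoids and glucagon, was at 497 ± 99.6 FPKM in treated and 924 ± 224 FPKM in untreated livers (-0.89 ± 0.18, adjusted p = 0.0355). None of the 3 had overlapping groups. Amdhd1 lost its call without control 2, HIIT 1, HIIT 3 or combined 3 (0.0532 to 0.0603) and Tat without controls 1 or 2, any HIIT library, semaglutide 1 or 3, or combined 2 (0.0554 to 0.0854). Agxt, the alanine-glyoxylate aminotransferase of peroxisomes, was lower too, at 70.9 ± 13.4 FPKM in treated and 150 ± 31.3 FPKM in untreated livers (-1.07 ± 0.17, adjusted p = 0.0117).

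Nitrogen disposal had estimates in the same direction. All 12 tested genes of the urea cycle and ornithine handling had log2 changes below 0, and 2 were called. Their median was -0.41, and -0.45 without semaglutide 2 and control 3. Slc7a2, the importer of arginine and other cationic amino acids, was at 29.8 ± 7.49 FPKM in treated and 64.3 ± 11.6 FPKM in untreated livers (SD, n = 6 each; -1.11 ± 0.17, adjusted p = 0.00904). Slc25a15, the ornithine carrier of mitochondria, was at 67.2 ± 16.5 FPKM in treated and 119 ± 19.1 FPKM in untreated livers (-0.84 ± 0.13, adjusted p = 0.00904). Ass1 was at -0.59 ± 0.18 and Oat at -0.73 ± 0.22, neither called (adjusted p = 0.112 and 0.114); in both genes control 3 was the lowest untreated library. Threonyl-tRNA synthetase, Tars1, was the 1 call among 20 tRNA synthetases, at 15.8 ± 3.02 FPKM in treated and 25.5 ± 1.56 FPKM in untreated livers (-0.67 ± 0.09, adjusted p = 0.00566). The share called lower over all tested genes was 0.812%.

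Csad, the decarboxylase that makes hypotaurine from a cysteine product, was at 28.9, 26.7 and 42.1 FPKM with semaglutide and 65.7, 32.3 and 20 FPKM in the combined group, against 9.04, 12.3 and 10.6 FPKM with HIIT and 10.7, 5.98 and 10.5 FPKM in controls (1.69 ± 0.25, adjusted p = 0.00752). Csad overlaps Zfp740 on the opposite strand, which was called higher as well (0.52 ± 0.10, adjusted p = 0.0285), and unless strand was used in counting the overlapping part cannot be told apart. In the tryptophan and NAD list 11 of 17 tested genes had log2 changes below 0 (median -0.15), with 2 called higher and 1 lower. Acmsd, whose product draws tryptophan metabolites away from NAD, had the lowest log2 change of the genes named on the log2(FPKM + 1) scale. Among the alternative settings Ptgds reached -2.095, below the lowest estimate of Acmsd there, -2.065. Acmsd was at 4.3, 2.38 and 3.36 FPKM with semaglutide and 2.9, 2.46 and 2.18 FPKM in the combined group, against 14.5, 16.1 and 14.6 FPKM with HIIT and 12, 13.9 and 5.87 FPKM in controls (-1.78 ± 0.21, adjusted p = 0.00309). The change was -1.37 in sedentary and -2.20 in trained mice (unadjusted p of the difference 0.0441). Nampt, the rate-limiting enzyme of NAD salvage, was at 22.9 ± 4.31 FPKM in treated and 11.5 ± 2.03 FPKM in untreated livers (SD, n = 6 each; 0.93 ± 0.14, adjusted p = 0.00781). Nmrk1, which phosphorylates nicotinamide riboside, was at 12.7 ± 3.53 FPKM in treated and 4.73 ± 2.31 FPKM in untreated livers (1.31 ± 0.22, adjusted p = 0.015). The kynurenine enzymes Kmo (-0.60 ± 0.14, adjusted p = 0.0578) and Kynu (-0.62 ± 0.16, adjusted p = 0.0782) did not pass.

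In bile acid metabolism, 2 of 23 tested genes were called, both lower. Nr0b2, which encodes the repressor SHP, was at 17.7, 9.63 and 9.75 FPKM with semaglutide and 26.7, 19.6 and 16.2 FPKM in the combined group, against 45.9, 47.3 and 41.7 FPKM with HIIT and 29.3, 26.5 and 28 FPKM in controls. Treated livers were below untreated ones within each layer, while combined 1 lay just above control 2; the change was -1.13 ± 0.15 (adjusted p = 0.00526). Abcb11, the bile salt export pump, was at 44.1 ± 9.73 FPKM in treated and 81.3 ± 13.7 FPKM in untreated livers (SD, n = 6 each; -0.88 ± 0.17, adjusted p = 0.0224). SHP is known to repress Cyp7a1, the rate-limiting enzyme of bile acid synthesis. Cyp7a1 was at 63.8 ± 22.4 FPKM in treated and 17.4 ± 11.5 FPKM in untreated livers without overlap, and just missed the threshold (2.06 ± 0.47, adjusted p = 0.0526). Nr1h4, the bile acid receptor FXR, was at 0.59 ± 0.13 (adjusted p = 0.0526), and semaglutide 2 was far below the other treated livers. Scarb1, the HDL receptor, was the 1 call among 24 genes of lipoprotein assembly and uptake (-0.55 ± 0.11, adjusted p = 0.0338), while Apoa4 was at 1.15 ± 0.27 (adjusted p = 0.0569). Of all tested genes 0.812% were called lower. The call of Abcb11 ended without any HIIT library, control 1 or 2, or combined 2 or 3 (0.0511 to 0.0635), and that of Scarb1 without any library other than control 3, semaglutide 2 and combined 1 (0.0522 to 0.0915).

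Among drug and steroid metabolism genes, calls went both ways. Nr1i3 encodes the xenobiotic receptor CAR and rose, with 258 ± 68.4 FPKM in treated and 107 ± 41.5 FPKM in untreated livers (SD, n = 6 each; 1.32 ± 0.21, adjusted p = 0.0114). Tomm40l, its neighbour that overlaps it on the opposite strand, rose alike (1.28 ± 0.22, adjusted p = 0.015); it is named for that overlap after its values were seen, and unstranded counting could not separate the pair. Cyp1a2, a drug-oxidising cytochrome of the central lobule, was at 91.1 ± 24.4 FPKM in treated and 188 ± 33.7 FPKM in untreated livers (-1.07 ± 0.14, adjusted p = 0.00526). Cyp2u1 (-0.42 ± 0.09, adjusted p = 0.0355) was the other lower call among 39 cytochrome and sensor genes. Srd5a1, steroid 5-alpha reductase, was at 8.27 ± 2.79 FPKM in treated and 20.5 ± 3.19 FPKM in untreated livers (-1.25 ± 0.19, adjusted p = 0.00917), and Hsd17b6, which oxidises androgens, at 25.3 ± 15.4 FPKM in treated and 57.7 ± 13.9 FPKM in untreated livers (-1.30 ± 0.30, adjusted p = 0.0526). Of 29 tested steroid and sex-biased genes, 23 had log2 changes below 0 (median -0.40), and Srd5a1 and C8b were called. Cux2, also in this list, went the other way without overlap and was not called (0.81 ± 0.21, adjusted p = 0.072). It was at 1.21 ± 0.821 FPKM in treated and 0.209 ± 0.178 FPKM in untreated livers. With 1 library left out, the call of Cyp2u1 (0.0682 to 0.0915) ended for every library other than control 3, semaglutide 2 and combined 1.

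Genes of secreted plasma proteins, and of the machinery that folds them, gave a few calls in the lower direction, where the share over all tested genes was 0.812%. The hepatocyte markers' median of -0.28 stands beside these lists too, and it was -0.10 without semaglutide 2 and control 3. Of 23 coagulation genes 21 had log2 changes below 0 (median -0.37), and 2 inhibitors were called: Serpinf2, the plasmin inhibitor, at 169 ± 34.1 FPKM in treated and 282 ± 25.4 FPKM in untreated livers (SD, n = 6 each; -0.76 ± 0.15, adjusted p = 0.0258), and Serpind1, heparin cofactor II (-0.63 ± 0.13, adjusted p = 0.0368). Of 26 complement genes 25 were below 0 (median -0.30), and C8b, a subunit of the membrane attack complex, was called at 25.9 ± 5.97 FPKM in treated and 52.8 ± 12.2 FPKM in untreated livers (-1.0 ± 0.19, adjusted p = 0.0257). Of 25 genes of the endoplasmic reticulum stress response 19 were below 0 (median -0.26) and 2 were called, both without overlap. These were Pdia6, a disulfide isomerase (-0.65 ± 0.13, adjusted p = 0.0276), and Edem1, which sends misfolded glycoproteins to degradation (-0.37 ± 0.07, adjusted p = 0.0257). Sdc1, a heparan sulfate proteoglycan through which hepatocytes take up lipoprotein remnants, was at 69.6 ± 9.95 FPKM in treated and 132 ± 23.8 FPKM in untreated livers (-0.91 ± 0.13, adjusted p = 0.00566). Its change was -1.16 in sedentary and -0.66 in trained mice (unadjusted p of the difference 0.0388). Medians without semaglutide 2 and control 3 were -0.24 for coagulation, -0.11 for complement and -0.23 for the stress response.

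Acute phase genes had medians of opposite sign in the layers, a difference that was not tested for the list. Of 28 tested, 27 had main effects below 0, with a median of -0.42, and only Crp was called, at 139 ± 31.2 FPKM in treated and 231 ± 27.4 FPKM in untreated livers (SD, n = 6 each; -0.75 ± 0.16, adjusted p = 0.0357). The list's median was -1.44 in sedentary mice and 0.35 in trained mice. Saa1, a major acute phase protein, was at 2910, 1540 and 1250 FPKM with semaglutide and 2500, 1720 and 755 FPKM in the combined group, against 281, 1660 and 221 FPKM with HIIT and 2510, 15500 and 26100 FPKM in controls. Controls 2 and 3 thus held values that no other library approached, and Saa1 and Saa2 are near copies whose fragments may be shared. Without control 3 and semaglutide 2 the list's median was 0.10. The complement median was likewise -0.71 in sedentary and 0.02 in trained mice, and -0.11 without both libraries. Interferon response genes (38 tested) had a median of -0.07, with -0.48 in sedentary and 0.2 in trained mice. In that list 2 sensors or effectors of viral RNA were called lower, Dhx58 (-0.55 ± 0.09, adjusted p = 0.0156) and Parp12 (-0.45 ± 0.10, adjusted p = 0.043). Signs also differed between layers for the medians of MHC class I genes (-0.44 in sedentary and 0.39 in trained mice). The same held for guanylate-binding and immunity GTPase genes (-0.51 and 0.38). These differences were not tested either. The macrophage markers summed to between 73.9 and 503 FPKM in treated and between 81.1 and 1040 FPKM in untreated livers, and neutrophil markers to between 3.12 and 17.5 FPKM in treated and between 0.706 and 431 FPKM in untreated livers; their part in these list medians was not tested.
Without 1 library, the call of C8b ended for control 2, HIIT 2, semaglutide 3 or combined 2 (0.0548 to 0.0682), Crp for 7 libraries (controls 1 and 2, all HIIT, combined 2 and 3; 0.0584 to 0.0915), Serpinf2 for 7 (controls 1 and 2, HIIT 2 and 3, semaglutide 3, combined 1 and 2; 0.0519 to 0.0724), Serpind1 for all but control 3, semaglutide 1 and semaglutide 2 (0.0616 to 0.0915), Edem1 for control 2 and all HIIT and combined libraries (0.0536 to 0.0739), Pdia6 for all HIIT and combined libraries (0.0539 to 0.0728) and Parp12 for all but semaglutide 2 (0.0517 to 0.0999).

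**Figure D5:**
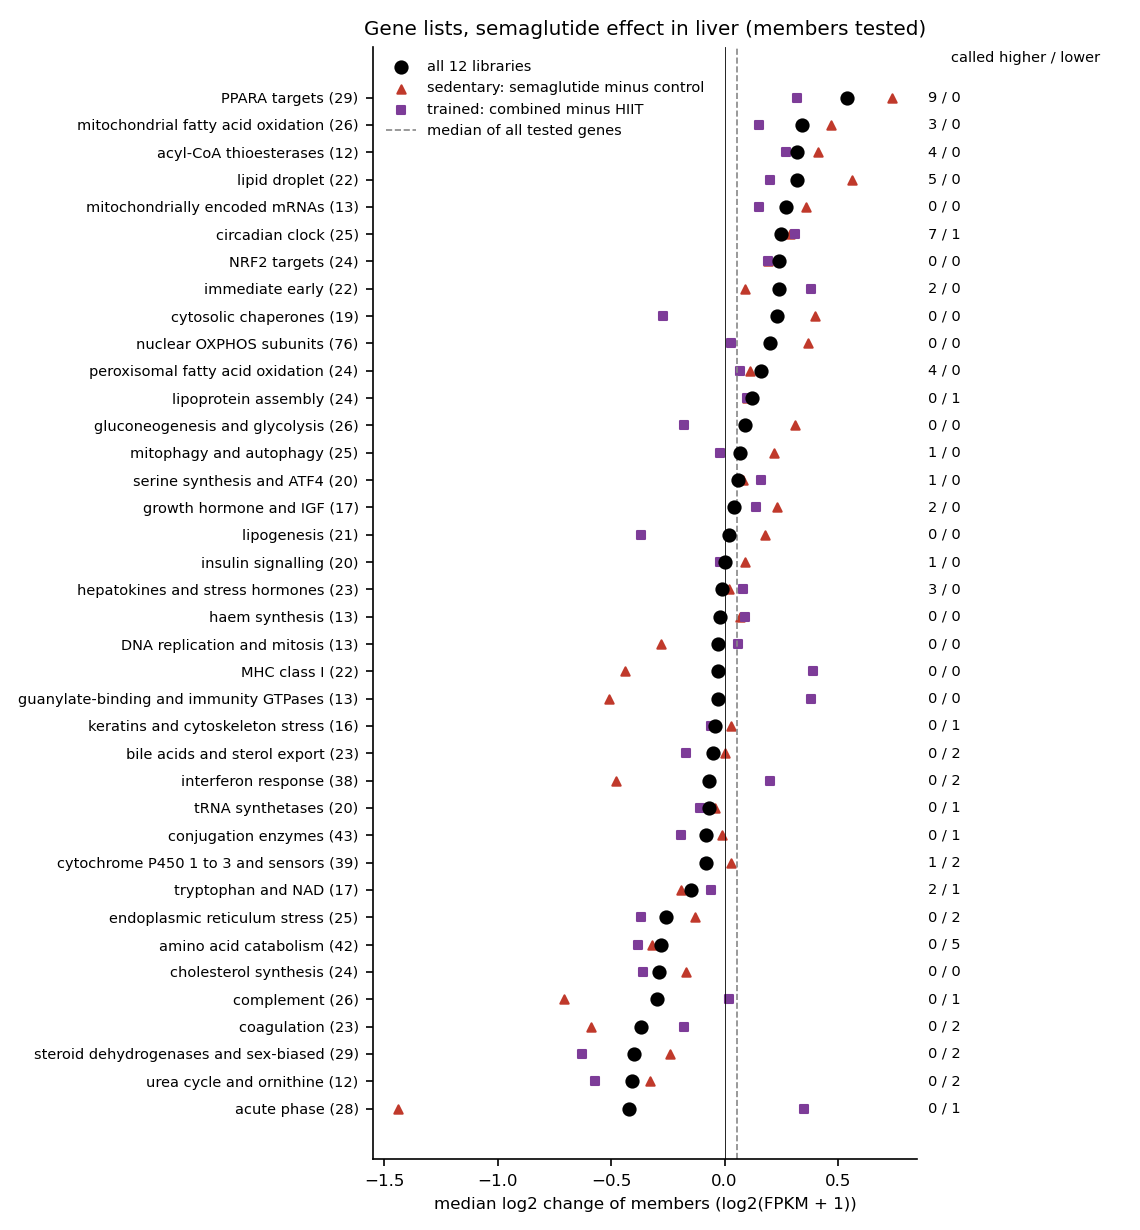
Median log2 change (x axis, log2(FPKM + 1)) of the tested members of each pathway list with at least 10 tested (number in brackets), over all 12 libraries and in each layer, with the numbers called higher and lower at the right. PPARA targets head the plot at 0.54 with 9 called higher, and acute phase genes end it at -0.42, with -1.44 in sedentary and 0.35 in trained mice.

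Higher calls also fell on a few growth and stress genes. Over all tested genes 0.966% were called higher, and a single call in a list is not read as a result about that list. Myc, a growth regulator, was at 3.98 ± 1.07 FPKM in treated and 1.38 ± 0.616 FPKM in untreated livers (SD, n = 6 each; 1.08 ± 0.19, adjusted p = 0.0162), and Gadd45b, a stress-induced gene, at 3.93 ± 2.64 FPKM in treated and 0.695 ± 0.462 FPKM in untreated livers (1.44 ± 0.27, adjusted p = 0.0222). These were the 2 calls among 22 immediate early genes; Jun was at 1.18 ± 0.37 and did not pass. The call of Gadd45b ended without control 2, HIIT 2, HIIT 3 or combined 3 (0.0502 to 0.0644). Bnip3, a receptor that marks mitochondria for autophagy, was at 184, 212 and 201 FPKM with semaglutide and 173, 170 and 196 FPKM in the combined group, against 103, 99.7 and 101 FPKM with HIIT and 97.5, 86.8 and 62.5 FPKM in controls. Its log2 change was 1.05 ± 0.13 (adjusted p = 0.00309), the 1 call among 25 mitophagy and autophagy genes. In insulin signalling (20 tested), Mtor, the nutrient-sensing kinase, was called at 6.5 ± 1.08 FPKM in treated and 4.58 ± 0.27 FPKM in untreated livers (0.42 ± 0.09, adjusted p = 0.0401), and its call ended without any library other than control 3, semaglutide 1, semaglutide 2 and combined 3 (0.0638 to 0.0971).

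Mitochondrial transcripts made up more of the treated libraries. The 13 mitochondrially encoded mRNAs and the other transcripts of that genome held 22.65, 25.4 and 23.27% of the summed FPKM with semaglutide and 19.45, 21.69 and 25.73% in the combined group, against 21.23, 18.02 and 19.89% with HIIT and 20.08, 18.72 and 14.28% in controls. The means were 23.03 ± 2.35% in treated and 18.7 ± 2.44% in untreated livers (SD, n = 6 each), a difference of 4.33 points (two-sided exact permutation test within layers, p = 0.015, smallest possible 0.005). Without semaglutide 2 and control 3 it was 3.07 points (exact permutation p = 0.05). Gene by gene none of the 13 mRNAs was called, all 13 having log2 changes above 0 with a median of 0.27. Of 76 nuclear genes for respiratory chain subunits 74 were above 0 and none was called, while 20 had an unadjusted p below 0.05. Their median was 0.20, with 0.37 in sedentary and 0.03 in trained mice, and 0.06 without those libraries.

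Genes outside every list were also among the strongest. Ncald, the calcium sensor neurocalcin delta, had the smallest p of the whole comparison. It was at 0.727, 0.994 and 0.916 FPKM with semaglutide and 0.894, 1.1 and 0.893 FPKM in the combined group, against 4.19, 3 and 3.35 FPKM with HIIT and 2.84, 3.08 and 2.6 FPKM in controls, a log2 change of -1.11 ± 0.09 (adjusted p = 0.000367). Trim14, an adaptor of antiviral signalling, was between 2.81 and 4.33 FPKM in treated livers (median 3.85) and between 5.45 and 8.28 FPKM in untreated livers (median 7.08; -0.80 ± 0.07, adjusted p = 0.00083), and Rnd1, a small GTPase gene, at 3.07 ± 0.308 FPKM in treated and 6.5 ± 0.818 FPKM in untreated livers (SD, n = 6 each; -0.88 ± 0.09, adjusted p = 0.00131). Ptgds, a prostaglandin D synthase, was at 1.11 ± 0.494 FPKM in treated and 4.89 ± 1.55 FPKM in untreated livers (-1.48 ± 0.19, adjusted p = 0.00426). Further lower calls without overlap were the tight junction gene Cldn1 (-1.15 ± 0.17), the receptor phosphatase gene Ptprf (-0.68 ± 0.09), the fatty acid elongase gene Elovl1 (-0.75 ± 0.11), Mmd2 (-1.15 ± 0.18) and Insc (-1.02 ± 0.19). Insc changed by -1.48 in sedentary and -0.56 in trained mice (unadjusted p of the difference 0.00804), and its call ended without control 2 or HIIT 2 (0.0541 to 0.0626).

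On the higher side, Fmo2, a flavin monooxygenase, was at 16.6 ± 6.53 FPKM in treated and 5.13 ± 2.12 FPKM in untreated livers (SD, n = 6 each; 1.53 ± 0.27, adjusted p = 0.0164). Its highest value, 28.7 FPKM, was in semaglutide 2, and its change was 1.19 without semaglutide 2 and control 3. Lgals4, which encodes galectin-4, was at 41 ± 8.24 FPKM in treated and 17.7 ± 3.73 FPKM in untreated livers (1.17 ± 0.15, adjusted p = 0.00526). Csrp3, a LIM protein known from muscle, was at 25.9, 36.3 and 28.8 FPKM with semaglutide and 22.7, 20.7 and 37.3 FPKM in the combined group, against 10.7, 12.5 and 10.1 FPKM with HIIT and 14.6, 19.4 and 13.7 FPKM in controls. Semaglutide 2, the library with muscle transcripts, was the highest of its group at 36.3 FPKM, close to combined 3 at 37.3 FPKM. The part of muscle transcripts in this change was not tested. The change was 1.03 ± 0.15 with all libraries (adjusted p = 0.00781) and 0.97 without semaglutide 2 and control 3 (adjusted p = 0.00836). Eeig1 (0.89 ± 0.12), Cgref1 (0.74 ± 0.11) and Tor3a (0.57 ± 0.09) were higher without overlap. Lyve1, a hyaluronan receptor of the sinusoidal endothelium, was at 9.26 ± 4.01 FPKM in treated and 3.02 ± 1.17 FPKM in untreated livers (1.32 ± 0.26, adjusted p = 0.0258), with its highest value, 16.6 FPKM, in semaglutide 2. It was the 1 call among 18 tested endothelial markers, whose median was 0.33, and 0.12 without semaglutide 2 and control 3; the call ended without control 2, HIIT 2, HIIT 3, combined 2 or combined 3 (0.0543 to 0.0724).

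Whether training altered the response was tested by the interaction, trained minus sedentary. It called 1 gene of 10348 (0.00966%), with 891 at an unadjusted p below 0.05. That gene was Gbp11, a guanylate-binding protein gene of the interferon-induced family. It was at 1.18, 1.24 and 1.1 FPKM with semaglutide and 4.06, 3.6 and 5.77 FPKM in the combined group, against 1.6, 1.35 and 1.56 FPKM with HIIT and 3.26, 4.1 and 2.66 FPKM in controls. Semaglutide-treated sedentary livers were thus below controls and combined livers above HIIT livers, with no overlap in either layer. The log2 change was -0.99 in sedentary and 1.11 in trained mice, an interaction of 2.1 (adjusted p = 0.0194). The call ended without control 2, HIIT 1, 2 or 3, semaglutide 1 or 3, or combined 1, where the interaction stayed between 1.97 and 2.14 with adjusted p of 0.0674 to 0.117. Next in order of p, and not called, were H2-T10, Nlrc5, Cyp2j9 and Krt18 toward higher in trained mice and Chordc1, Snrnp48, Ern1, Magt1 and Mgat2 toward lower. Nlrc5, the activator of MHC class I genes, changed by -0.56 in sedentary and 0.56 in trained mice. Of the 184 genes called in the main effect, 16 had an interaction at an unadjusted p below 0.05.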

How the data were processed

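Polyadenylated RNA of liver was sequenced by the authors from stranded libraries read in pairs of 150 bases, as the labels' protocols describe. Build GRCm39 and the tools STAR 2.7.9a, StringTie 2.1.4, featureCounts 2.0.1, Trimmomatic 0.36, FastQC and CASAVA come from the submitters' processing notes, which give no order; no source used here states the strand setting. Values are FPKM per transcript as deposited by the authors. Here the FPKM of 66878 transcripts were summed to 22116 named genes; 470 transcripts without a gene name, 0.168 to 0.273% of a library's FPKM, were left out. Summed FPKM were 518967 to 552993 per library. Low values could not be turned back into whole fragments (14.7 to 16.4% lay within 0.05 of a whole multiple), so depth is unknown and precision is read from the spread between libraries. No pair of libraries was identical (highest correlation 0.9926).

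Tested were genes reaching 1 FPKM in 3 or more of the 12 libraries, as log2(FPKM + 1), with limma 3.58.1 in R 4.3.3, with semaglutide and training as additive factors and an intensity trend. Layers and the interaction came from a fit of the 4 groups. Adjustment was by Benjamini-Hochberg over all genes tested, at 0.05. The fit was tested on simulated data. Figures were drawn with Python 3.11.15 and matplotlib 3.10.9.

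The comparison and the 52 gene lists were chosen with earlier results of these data known; of the lists, 47 had enough tested members to describe. Named are the 12 largest changes in each direction among called genes without overlap, the 10 smallest p in each direction, up to 5 members of each described list, the receptor genes, the 5 smallest p of the interaction in each direction and the 6 smallest p in each direction among genes called in the main effect and in neither layer; predicted genes, pseudogenes, RIKEN clones and immune receptor segments are counted and not named. A further 4 genes are named outside the rule, and some genes are not reported here.

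The reference at hand, of another mouse build, served for promoter windows and for overlaps: of 121 named genes 119 were found in it, of which 32 share exons with an opposite-strand gene and 7 with a same-strand gene, which makes their values less certain. Alternatives tried were median-ratio scaling, leaving out the filter, a pseudocount of 0.1, a replicate block, training left out, no trend, library weights, removal of mitochondrial transcripts, transcripts tested one by one, each library left out, and semaglutide 2 with control 3 left out. That pair was picked because its libraries diverged in these same data, so smaller p-values without it are not separate evidence.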

Additional observations from a re-analysis of the deposited data

Results flagged for a closer look

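Among 244 groups of 6 libraries of named genes, 25 held a library whose gap to its nearest neighbour was above Dixon's 95% critical value, where chance gives about 1 in 20 groups. Of these, 10 were semaglutide 2 and 11 control 3. Semaglutide 2 was far above the other treated libraries for Plin4 at 93.5 FPKM (next 24.2) and Crat at 82 FPKM (next 44.1). It was far below them for Eeig1 at 9.29, Acot8 at 10.5, Nr1h4 at 54.5, Serpinf2 at 108, Serpind1 at 89, Nr1i3 at 133, Gcgr at 69.2 and Tomm40l at 36.8 FPKM. Control 3 was far above the other untreated libraries for H2-T10 at 8.34 and Edem1 at 26.6 FPKM. It was far below them for Acmsd at 5.87, Bnip3 at 62.5, G0s2 at 21.2, Abcb11 at 55.9, Slc38a3 at 277, Ass1 at 1390, Oat at 447, Cth at 227 and Ebp at 68 FPKM. In the remaining libraries, HIIT 1 was far above the other untreated ones for Per2 at 5.04 FPKM and below them for Tars1 at 22.5 FPKM, HIIT 2 was below them for Mtor at 4.07 FPKM, and combined 1 was below the other treated ones for Sult3a1 at 91 FPKM.

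For Gbp11 the effect of semaglutide differed between trained and sedentary mice by an interaction of 2.1 on the log2 scale (limma adjusted p = 0.0194), with opposite directions in the 2 layers, as described above.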

How the results depend on the processing

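Against 184 calls (100 higher, 84 lower), leaving out the filter gave 103 (57 higher, 46 lower), library weights 1081 (523 higher, 558 lower), leaving out semaglutide 2 and control 3 together 785 (337 higher, 448 lower, with all 184 among them), and transcripts one by one 70 (41 higher, 29 lower). Removing mitochondrial transcripts left 42 lower calls among 182. With 1 library left out the counts ran from 69 (without HIIT 3) to 304 (without control 3), 42 to 149 of them higher and 26 to 189 lower. With the replicate number as a block, 94 were called (52 higher, 42 lower); same-numbered libraries did not deviate together (r of -0.314 to 0.157), so the numbers were not taken to pair them. The interaction called 0 genes without the filter (1062 at unadjusted p below 0.05) and 0 to 15 with 1 library left out, the 15 without control 1, and training 0 to 2. The mitochondrial share differed by 3.07 points without semaglutide 2 and control 3, where its exact permutation p was 0.05, and by 3.47 to 5.04 points with 1 library left out. The causes of these moves were not tested. Of the 74 called genes named, 44 were called in every setting fitted by gene, and those that lost the call did so with adjusted p of at most 0.119. A pseudocount of 0.1, median-ratio scaling, no trend, no training term and the fit of 4 groups gave 176 to 225 calls. Median-ratio scaling gave 102 higher and 123 lower, with 149 of the 184 still called, and the fit of 4 groups 102 higher and 106 lower, with 169 still called. Genes that did not reach 1 FPKM in 3 libraries were not tested, and depth is unknown.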
